A study of Mus musculus with 686 samples.

Results

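The miR-106a-363 cluster is a short run of 6 miRNA hairpins on the mouse X chromosome, and 4 of its mature miRNAs are described here: mmu-miR-106a-5p, mmu-miR-18b-5p, mmu-miR-20b-5p and mmu-miR-363-3p, written below without the species prefix. They are 4 of the 1964 miRNAs listed in the miRNA table, and they were chosen by measured values, namely their restriction to thymus and their ratio between flight and ground mice in thymus. Their level in thymus against other tissues and the flight ratio in thymus are therefore given as a description, with no test.

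Small RNA sequencing covered 686 libraries from 13 tissues of female BALB/cAnNTac mice, aged 3 or 8 months and all fed NASA Nutrient Food Bars. Spaceflight mice (FL) lived on the International Space Station, habitat ground controls (HGC) in flight hardware on Earth with matched temperature, humidity and carbon dioxide, and vivarium ground controls (VGC) in standard cages. Live Animal Return mice (LAR, 348 libraries) came back alive and were dissected days after splashdown, with tissues snap frozen. In the ISS Terminal group (TERM, 338 libraries) mice were killed on the station, or on Earth for the controls, and whole carcasses were frozen and thawed before dissection, only the spleen being taken fresh into a preservative. Time in orbit, re-entry, crowding on return, which HGC mice also had, anaesthesia and storage differ together between LAR and TERM and cannot be told apart. Thymus gave 58 libraries, each from a separate mouse: 10 per arm in LAR, and 10 FL, 9 HGC and 9 VGC in TERM. Each arm held 5 mice of each age, except TERM HGC and TERM VGC with 4 at 3 months and 5 at 8 months.

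A miRNA hairpin is cut by Drosha and Dicer into a short duplex, 1 strand of which guides Argonaute to target mRNAs, mainly through its seed at bases 2 to 8. The miR-106a-363 cluster is a paralogue of the miR-17-92 and miR-106b-25 clusters, which are known for promoting proliferation and survival of lymphocyte precursors and for limiting the pro-apoptotic factor Bim and the cell cycle inhibitor p21. The thymus is the organ in which T cell precursors proliferate and are selected, and it shrinks with age and under stress.

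The mature sequences are shown because 3 of the members differ from a more abundant paralogue by 1 or 2 bases and because their seeds set which members address the same targets. They are the RefSeq sequences of GRCm38.p6, 5′ to 3′, with the seed in capitals, each member being followed by its closest relative in miR-17-92:
miR-106a-5p: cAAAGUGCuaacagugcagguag
miR-17-5p: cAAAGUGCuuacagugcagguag
miR-20b-5p: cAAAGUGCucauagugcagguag
miR-20a-5p: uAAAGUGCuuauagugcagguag
miR-18b-5p: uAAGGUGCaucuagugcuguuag
miR-18a-5p: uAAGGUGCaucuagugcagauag
miR-363-3p: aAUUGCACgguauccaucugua
miR-92a-3p: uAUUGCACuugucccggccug

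miR-106a-5p and miR-20b-5p carried the same seed, AAAGUGC, which they shared with miR-17-5p, miR-20a-5p, miR-106b-5p and miR-93-5p, so that 6 miRNAs of the 3 clusters belonged to this seed. miR-18b-5p shared AAGGUGC with miR-18a-5p alone, and miR-363-3p shared AUUGCAC with miR-92a-3p and miR-25-3p. Outside the seed, with positions counted from 1 at the 5′ end and the paralogue's base first, miR-106a-5p differed from miR-17-5p at 1 of 23 bases (U10A). miR-20b-5p differed from miR-20a-5p at 2 (U1C and U10C), and miR-18b-5p from miR-18a-5p at 2 (A18U and A20U). miR-363-3p was the most diverged member, with 10 of 21 aligned bases identical to miR-92a-3p. A read of miR-17-5p that carried the change U10A by error thus cannot be told from miR-106a-5p, whereas the other pairs differ by at least 2 bases.

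In GRCm38.p6 the 6 hairpins lie on the minus strand of chromosome X within 875 bases, from 52741693 to 52742567, in the order Mir106a, Mir18b, Mir20b, Mir19b-2, Mir92-2 and Mir363. The mature miR-106a-5p lies at chrX:52742541-52742563, miR-18b-5p at chrX:52742381-52742403, miR-20b-5p at chrX:52742159-52742181 and miR-363-3p at chrX:52741697-52741718. The deposited values were made on GRCm39, so these positions were used for order and spacing only. Mature miR-19b-3p and miR-92a-3p come from both this cluster and miR-17-92 on chromosome 14, and their reads cannot be assigned to either. All 4 members carried whole counts in every library, whereas miR-19b-3p and miR-92a-3p held split, fractional counts in 259 and 331 libraries.

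Levels are counts scaled to a total of 1000000 miRNA counts per library (CPM), which for miRNAs of 22 or 23 bases need no correction for length. The miRNA counts per library ran from 181393 to 30469295 with a median of 3875781 over all tissues. In thymus they ran from 1055424 to 8347643 with a median of 4943697, where 3 counts, the limit that a count of 0 allows, equal 0.607 CPM at the median depth. In 164 of the 686 libraries (23.9%) the miRNA profile, computed without the 3 clusters, was closer to another tissue than to the labelled one. This applied to 9 of 58 thymus libraries, to 46 of 57 of mesenteric adipose tissue (MAT) and to 0 of 25 of brain. Of the 164, 5 labelled as brown adipose tissue (BAT), diaphragm, gonadal adipose tissue (GAT) or liver had a thymus profile. Values are therefore for all libraries as labelled unless they are said to come from libraries of their own profile, that is, without these 164.

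In thymus, miR-20b-5p ranked 60th, miR-106a-5p 68th, miR-363-3p 106th and miR-18b-5p 234th by level among the 1964 miRNAs. Over the 58 thymus libraries miR-20b-5p lay between 3.08 and 5025 CPM with a median of 1878, and miR-106a-5p between 2.00 and 3977 with a median of 1302. miR-363-3p lay between 1.00 and 1108 CPM with a median of 500.4, and miR-18b-5p between 0 and 212.9 with a median of 51.6. The lowest value of each member came from a library with another tissue's profile. Among the 49 thymus libraries of their own profile, miR-20b-5p lay between 405.6 and 5025 CPM (median 2175) and miR-106a-5p between 289.5 and 3977 (median 1583). miR-363-3p lay between 54.2 and 1108 CPM (median 537.4) and miR-18b-5p between 0.319 and 212.9 (median 57.4). The lowest values of miR-106a-5p and miR-18b-5p in this set came from FL TERM replicate 1, whose profile was nearest to thymus with a correlation of only 0.146, where the next lowest of the 49 was 0.595. Counting error was small for the abundant members, with a median of 7823 reads for miR-20b-5p per thymus library, and larger for miR-18b-5p with a median of 206.

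**Figure D1:**
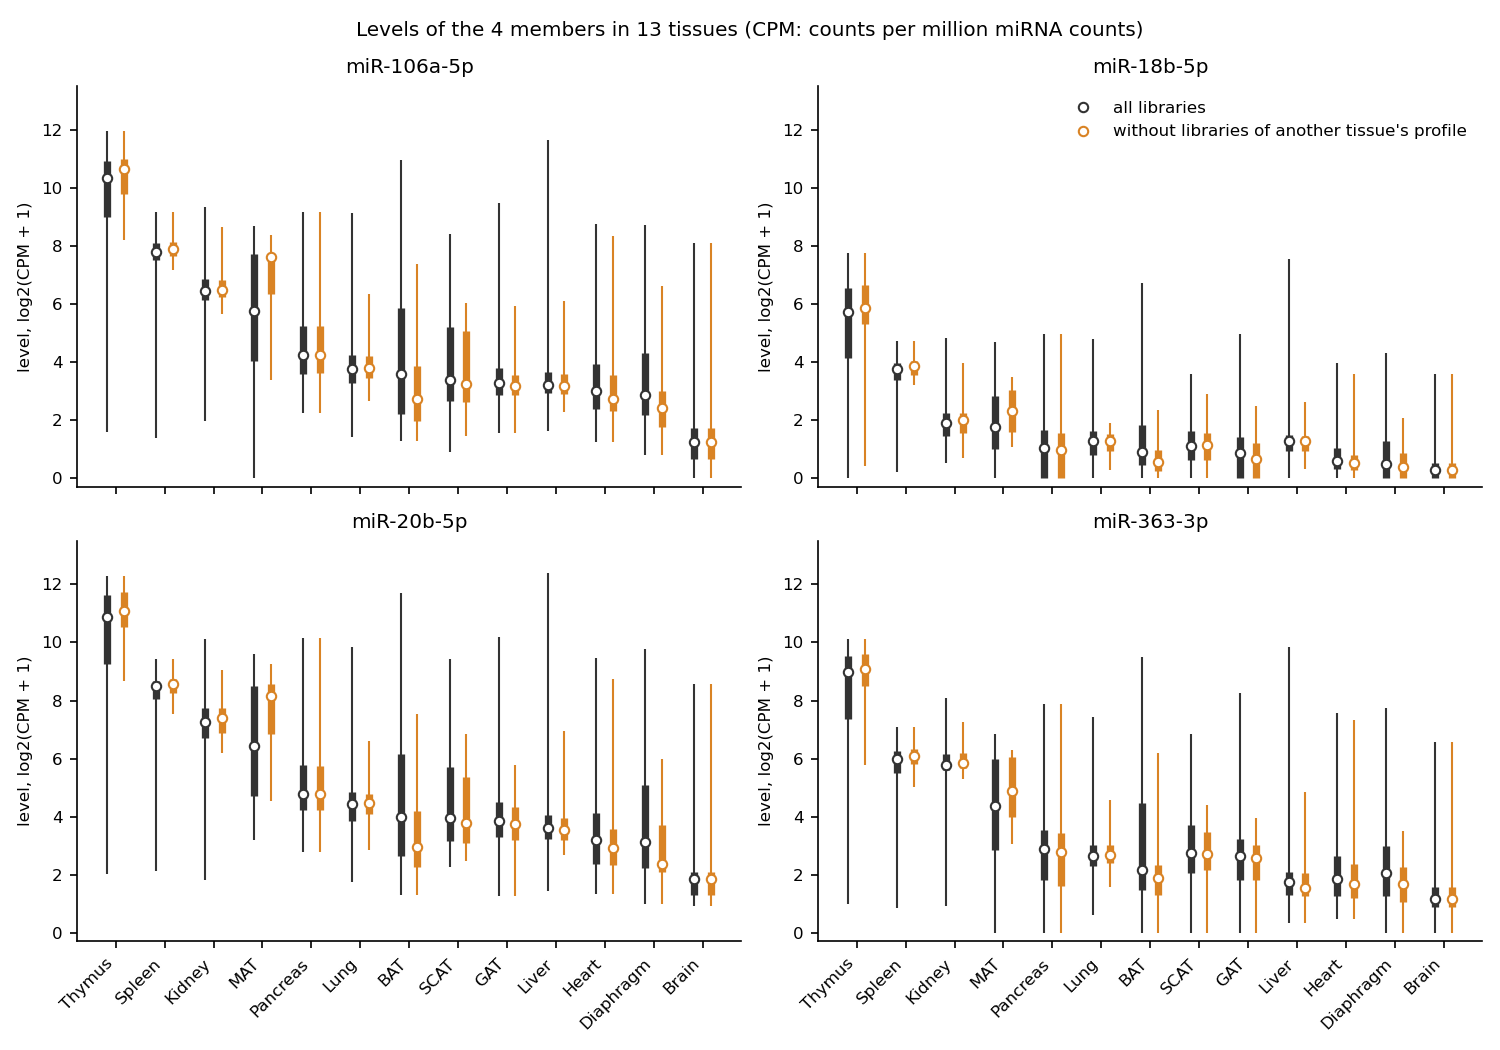
Level of the 4 members in the 13 tissues, as log2(CPM + 1). Circles are medians, thick lines span the quartiles and thin lines the lowest to highest library, in black for all libraries and in orange without libraries whose profile matched another tissue. Thymus stands first for each member, spleen second, and the long thin lines of BAT and liver shorten once libraries of another profile are left out.

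Thymus had the highest median of all 13 tissues for each member, spleen the next and kidney the one after. The spleen median was 364.4 CPM for miR-20b-5p, 220.1 for miR-106a-5p, 62.5 for miR-363-3p and 12.4 for miR-18b-5p (n = 47). The thymus median was 5.15 times that of spleen for miR-20b-5p, 5.91 times for miR-106a-5p, 8.00 times for miR-363-3p and 4.15 times for miR-18b-5p. Without libraries of another profile these ratios were 5.78, 6.69, 8.04 and 4.25. The ranges between the quartiles of thymus and spleen did not overlap for any of the 4 members, with 610.1 to 3209 CPM against 265.9 to 408.2 for miR-20b-5p. The members were chosen by this restriction, and the share of all miRNAs with such a gap was not computed. Since thymus and spleen are lymphoid organs sampled in bulk, a smaller share of cells carrying the miRNA and a lower level per cell cannot be told apart.

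Kidney came after spleen for the 4 members, with medians of 152.8 CPM for miR-20b-5p, 86.4 for miR-106a-5p, 54.3 for miR-363-3p and 2.75 for miR-18b-5p (n = 57). For miR-363-3p, kidney (48.3 to 69.9 CPM between the quartiles) and spleen (44.0 to 74.9) overlapped, whereas for the other members spleen lay above kidney without overlap. MAT was the fourth, with a median of 84.6 CPM for miR-20b-5p and a wide range between quartiles of 25.5 to 364.5. In the 11 MAT libraries of their own profile the miR-20b-5p median was 284.3 CPM, above kidney at 166.8, and MAT came before kidney for miR-106a-5p and miR-18b-5p as well.

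From pancreas downward the levels formed a flat tail. The miR-20b-5p medians were 26.5 CPM in pancreas, 20.7 in lung, 14.7 in BAT, 14.5 in subcutaneous adipose tissue (SCAT), 13.6 in GAT, 11.2 in liver, 8.07 in heart, 7.71 in diaphragm and 2.60 in brain. miR-106a-5p followed the same order, from 17.9 CPM in pancreas through 12.6 in lung, 10.9 in BAT, 9.45 in SCAT, 8.65 in GAT, 8.29 in liver, 6.88 in heart and 6.20 in diaphragm to 1.38 in brain. For miR-363-3p the tail ran from 6.38 CPM in pancreas over 5.76 in SCAT, 5.25 in lung, 5.20 in GAT, 3.49 in BAT, 3.18 in diaphragm, 2.62 in heart and 2.33 in liver to 1.23 in brain. Neighbours in these tails had overlapping quartile ranges throughout most of their length: of the 12 pairs of neighbouring tissues, 9 overlapped for miR-20b-5p, 9 for miR-106a-5p, 11 for miR-363-3p and 10 for miR-18b-5p. These counts were 10, 9, 10 and 9 in libraries of their own profile, and the miR-20b-5p tail ran from 26.5 CPM in pancreas over 21.0 in lung to 2.60 in brain, with BAT at 6.79. miR-18b-5p was near the detection limit outside thymus and spleen, with medians of 2.40 CPM in MAT, 1.43 in liver, 1.42 in lung, 1.13 in SCAT and 1.03 in pancreas. Its medians in BAT, GAT, heart, diaphragm and brain ran from 0.835 down to 0.203 CPM, and it was at 0 in 85 of the 686 libraries, against 15 for miR-363-3p, 2 for miR-106a-5p and 0 for miR-20b-5p.

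High values outside thymus came from few libraries. Of the 628 libraries with other labels, 2 exceeded the thymus median for each member, and the highest was the library labelled liver VGC TERM replicate 14 with 5392 CPM of miR-20b-5p and 3200 of miR-106a-5p. This library had a thymus profile. The others of that kind held 3327 CPM of miR-20b-5p (BAT VGC TERM replicate 14), 1735 (liver VGC LAR replicate 12), 1158 (GAT HGC LAR replicate 14) and 335.9 (diaphragm HGC TERM replicate 1). The match to thymus was weak in the last 2, with a correlation of 0.434 in the GAT library and of 0.413 in the diaphragm library, whose correlation with diaphragm was 0.4004, against 0.832 to 0.943 in the other 3. Among the 473 libraries of their own profile outside thymus, 0 exceeded the thymus median of any member, and the highest miR-20b-5p value was 1149 CPM, in pancreas.

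The paralogues did not share this distribution. In libraries of their own profile miR-17-5p had medians of 4981 CPM in thymus and 4599 in spleen, and miR-20a-5p was highest in spleen with 4174 CPM against 3230 in thymus. miR-18a-5p had 1163 CPM in thymus and 896 in spleen, and miR-92a-3p, to which both clusters contribute, 4111 and 2206. The miR-106b-25 members miR-106b-5p, miR-93-5p and miR-25-3p, and miR-19a-3p and miR-19b-3p, were highest in spleen. The quartile ranges of thymus and spleen overlapped for miR-17-5p, miR-18a-5p and miR-20a-5p.

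A ratio taken within a library needs no scaling between libraries. In thymus libraries of their own profile miR-20b-5p made up 39.5% of the sum of miR-20b-5p and miR-20a-5p (quartiles 34.3 to 43.3, n = 49), against 7.90% in spleen (n = 40) and 11.7% in kidney (n = 47). miR-106a-5p made up 22.3% of its pair with miR-17-5p in thymus, 4.81% in spleen and 5.41% in kidney. miR-18b-5p made up 5.24% of its pair with miR-18a-5p in thymus and 1.47% in spleen, and miR-363-3p 9.73% of its pair with miR-92a-3p in thymus and 2.84% in spleen. With all libraries the thymus shares were 38.9%, 21.5%, 5.20% and 8.73% in the same order. In thymus the X-linked members thus stood nearer to their paralogues than in any other tissue, yet each had a median share below that of its paralogue. The members were chosen for their restriction to thymus, so a high share there was partly set by the choice.

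**Figure D2:**
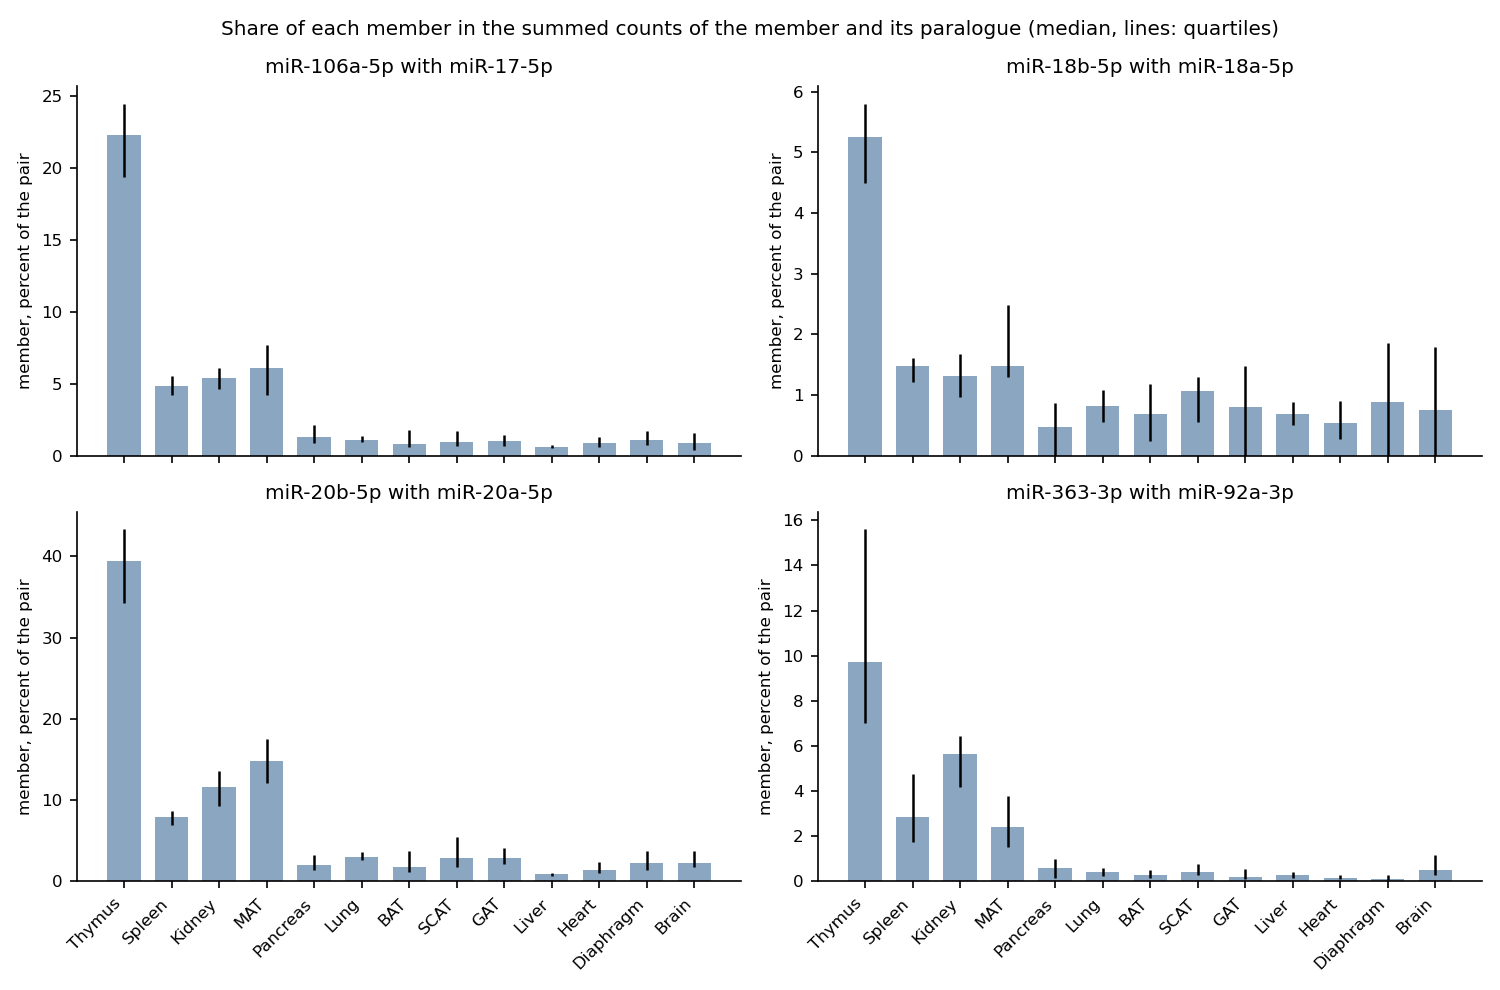
Median percentage of each member in the sum of the member and its miR-17-92 paralogue, by tissue, in libraries of their own profile. Bars are medians and lines span the quartiles. The thymus bar is the tallest in each of the 4 panels, at 39.5% for miR-20b-5p and 22.3% for miR-106a-5p.

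Ratios of miR-20b-5p to each other member were compared in 4 tissues. The median of miR-20b-5p over miR-106a-5p was 1.56 in thymus, 1.57 in spleen, 1.61 in kidney and 1.63 in lung, in libraries of their own profile. The median of miR-20b-5p over miR-363-3p varied more, at 3.85 in thymus, 5.35 in spleen, 2.68 in kidney and 3.52 in lung, as did that of miR-20b-5p over miR-18b-5p, at 35.0, 27.0, 55.8 and 17.8. Over the 13 tissue medians of log2(CPM + 1) the 6 pairs of members correlated with r between 0.94 and 0.998, and over the 58 thymus libraries with r between 0.896 and 0.987. In the 49 thymus libraries of their own profile r ran from 0.714 for miR-106a-5p with miR-363-3p to 0.953 for miR-106a-5p with miR-20b-5p. In the same 49 libraries the members were also close to their paralogues, with r of 0.972 for miR-18b-5p with miR-18a-5p, 0.937 for miR-106a-5p with miR-17-5p and 0.935 for miR-20b-5p with miR-20a-5p, against 0.396 for miR-363-3p with miR-92a-3p. Over the tissue medians these 4 values were 0.880, 0.891, 0.859 and 0.674 in that order. These points share their libraries and their depth, so the values are descriptions.

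The other strands of the 6 hairpins were low and were also highest in thymus. In thymus libraries of their own profile miR-20b-3p had a median of 112.8 CPM, miR-363-5p of 18.0, miR-106a-3p of 13.1, miR-92a-2-5p of 13.1, miR-18b-3p of 6.55 and miR-19b-2-5p of 0.742. The strand with the higher level exceeded its partner 96.1-fold for miR-106a-5p, 17.0-fold for miR-20b-5p, 27.8-fold for miR-363-3p and 10.5-fold for miR-18b-5p, the last in the 48 of 49 libraries where both were counted. miR-92a-2-5p and miR-19b-2-5p are the strands that only this cluster encodes of the hairpins whose main product is ambiguous, and they were at 0 in 4 and 16 of the 58 thymus libraries.

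Outside the 3 clusters, the miRNAs most like miR-20b-5p over the 13 tissue medians were miR-147-3p, an immune-inducible miRNA (r = 0.912), miR-466p-5p (0.907), miR-16-2-3p (0.890), miR-467c-5p (0.890) and miR-466h-5p (0.889), with n = 13, and r between 0.896 and 0.927 in libraries of their own profile. miR-106a-5p had miR-466p-5p first (r = 0.903), miR-363-3p had miR-147-3p (0.935), and miR-18b-5p had miR-467b-3p (0.952), which lay below the detection limit with a thymus median of 0.286 CPM. Over the 58 thymus libraries miR-18b-5p was most like miR-301b-3p (r = 0.971, and 0.970 in the 49 of their own profile), and miR-106a-5p most like miR-130b-3p (0.920 and 0.907). miR-20b-5p and miR-363-3p were most like miR-669l-5p (r = 0.900 and 0.911), which fell to 0.757 and 0.850 in libraries of their own profile. miR-181a-1-3p, the partner strand of the T cell miRNA miR-181a, was also among those of miR-106a-5p (r = 0.899, and 0.767 in libraries of their own profile) and of miR-20b-5p (0.878 and 0.791). All these points share libraries and depth.

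The flight ratio in thymus was among the values that chose the members and is described without a test. In LAR, miR-20b-5p ran in FL from 270.7 to 1354 CPM with a median of 524.9, in HGC from 461.5 to 3558 with a median of 1624, and in VGC from 237.9 to 3012 with a median of 1878 (n = 10 each). miR-106a-5p ran in FL from 104.8 to 867.8 CPM (median 472.2), in HGC from 250.4 to 2002 (902.5) and in VGC from 112.3 to 1863 (1349). The FL medians were the lowest and the 3 arms overlapped. miR-363-3p ran in FL from 49.4 to 535.8 CPM (median 123.5), in HGC from 97.5 to 1013 (434.1) and in VGC from 72.7 to 771.5 (402.7). miR-18b-5p ran in FL from 4.41 to 44.3 CPM (median 12.2), in HGC from 15.4 to 111.6 (40.3) and in VGC from 2.76 to 83.1 (45.3).

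In LAR the ratio of medians FL vs. HGC was 0.323 for miR-20b-5p, 0.523 for miR-106a-5p, 0.284 for miR-363-3p and 0.304 for miR-18b-5p. FL vs. VGC, which shares the FL libraries, gave 0.280, 0.350, 0.307 and 0.271. The edgeR model gave log2 differences FL vs. HGC of −1.36 ± 0.390 (SE) for miR-20b-5p, −1.18 ± 0.393 for miR-106a-5p, −1.37 ± 0.430 for miR-363-3p and −1.41 ± 0.440 for miR-18b-5p. Without libraries of another profile these were −1.27, −1.04, −1.24 and −1.35, and the ratios of medians 0.371, 0.542, 0.356 and 0.329. With the plate of the study's sample list as a covariate they were −1.12, −1.29, −1.28 and −1.23.

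Within each age the flight values are given for LAR libraries of their own profile, with no account taken of plate. At 3 months miR-20b-5p ran from 411.5 to 1354 CPM in 4 FL libraries, from 1729 to 3558 in 4 HGC libraries and from 2606 to 3012 in 3 VGC libraries. The FL libraries lay below all ground libraries of that age, and the same held for miR-106a-5p (464.3 to 867.8 CPM in FL against 1219 to 2002 in HGC) and for miR-18b-5p (10.2 to 44.3 against 49.6 to 111.6). miR-363-3p overlapped, with 54.2 to 446.0 CPM in FL and 410.4 to 1013 in HGC. The members were chosen by their flight ratio, so such gaps are no independent result. The share of all miRNAs with a gap in groups this small was not computed. At 8 months miR-20b-5p ran from 405.6 to 1292 CPM in 4 FL libraries, from 506.0 to 1695 in 5 HGC libraries and from 1205 to 2090 in 5 VGC libraries, so the arms overlapped. The ratio of medians FL vs. HGC for miR-20b-5p was 0.314 at 3 months and 0.371 at 8 months in these libraries. With plate as a covariate and all LAR libraries, the fitted log2 difference FL vs. HGC at 8 months minus that at 3 months was −0.44 for miR-20b-5p, −0.15 for miR-106a-5p, −0.32 for miR-363-3p and 0.45 for miR-18b-5p, against 0.72, 0.73, 0.68 and 1.03 without plate, so that the age at which the difference was larger turned for 3 of the 4 members.

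**Figure D3:**
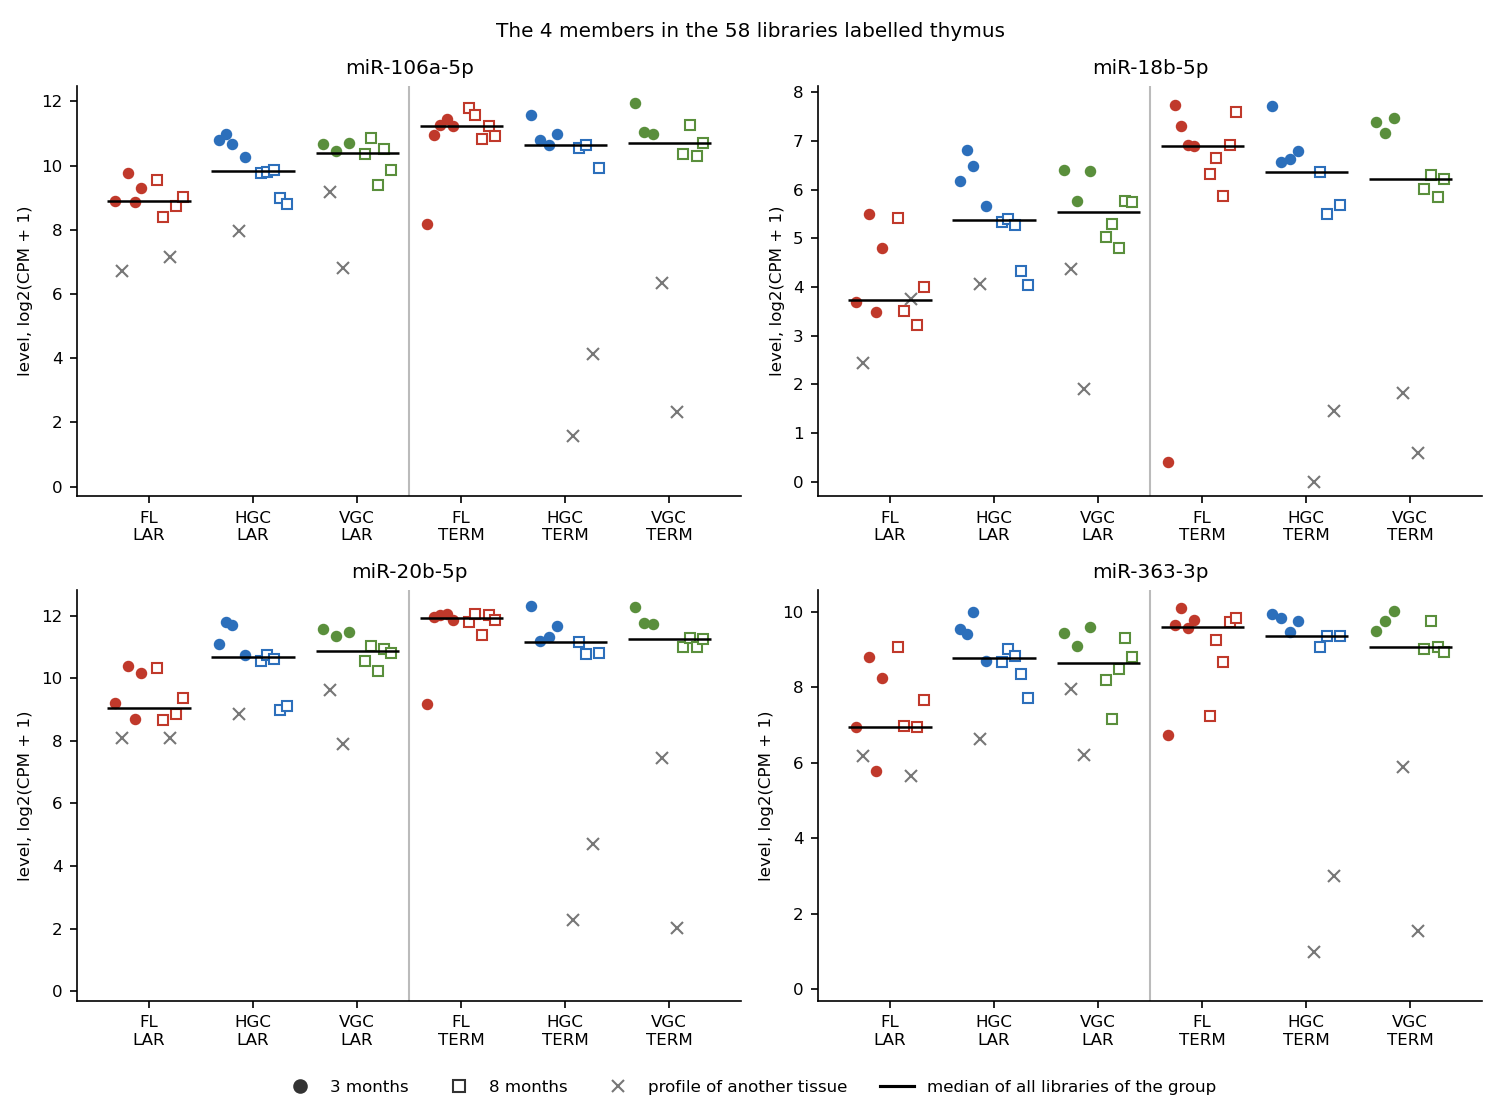
Level of the 4 members in each of the 58 thymus libraries, as log2(CPM + 1), by arm in LAR and TERM. Filled circles are mice of 3 months, open squares mice of 8 months, grey crosses libraries whose profile matched another tissue, and lines the median of all libraries of a group. FL lies lowest in LAR, with a miR-20b-5p median of 524.9 CPM, and highest in TERM, with 3842 CPM.

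In TERM the FL median was the highest of the arms for each member, where in LAR it was the lowest. miR-20b-5p ran in FL from 581.3 to 4283 CPM with a median of 3842 (n = 10), in HGC from 3.80 to 5025 with a median of 2306 (n = 9) and in VGC from 3.08 to 4963 with a median of 2439 (n = 9). The ratio of medians FL vs. HGC was 1.67 for miR-20b-5p, 1.52 for miR-106a-5p, 1.18 for miR-363-3p and 1.46 for miR-18b-5p. The fitted log2 differences were 0.90, 0.87, 0.25 and 0.80, and 0.53, 0.49, −0.14 and 0.43 without the 4 ground libraries of another profile, so that for miR-363-3p the sign of this small difference turned. In the 24 TERM libraries of their own profile the arms overlapped for each member, miR-20b-5p running from 1766 to 5025 CPM in 7 HGC libraries and from 2021 to 4963 in 7 VGC libraries. Whether the LAR and TERM ratios differ was not tested, since both were used in the choice.

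The paralogues' LAR medians, in libraries of their own profile, gave ratios FL vs. HGC of 0.663 for miR-17-5p, 0.576 for miR-18a-5p, 0.600 for miR-20a-5p and 0.689 for miR-92a-3p. Each was nearer to 1 than its X-linked counterpart, but the members were chosen by this ratio and the paralogues were not. That order was thus partly set by the choice. Those of miR-106b-25 were 0.878 for miR-106b-5p, 0.894 for miR-93-5p and 1.08 for miR-25-3p. The partner strands of the cluster gave 0.529 for miR-20b-3p, 0.439 for miR-106a-3p and 0.502 for miR-18b-3p. They were 0.403 for miR-363-5p, 0.427 for miR-92a-2-5p and 0.668 for miR-19b-2-5p, the last near the detection limit. All these use the same libraries as the members.

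Muscle, fat and erythroid markers moved with the LAR arms. The summed level of 5 muscle miRNAs had medians of 23138 CPM in FL (range 262.9 to 37972), 9204 in HGC (1979 to 20385) and 4721 in VGC (285.0 to 62006), and of 3 fat miRNAs 73768, 46357 and 46905. The 2 erythroid miRNAs summed to 52257, 42287 and 30660 CPM. The 4 miRNAs of stroma and smooth muscle summed to 51549, 49164 and 48782 CPM and the 6 of epithelium to 35787, 31157 and 33919, with 824.4, 796.1 and 799.1 for the myeloid miRNA and 745.4, 650.9 and 662.8 for the 2 of kidney. The liver miRNA was at 205.4, 113.3 and 108.4 CPM, the 2 of neurons summed to 181.6, 132.3 and 182.6, and the 2 of exocrine pancreas to 5.51, 3.09 and 5.49. The 8 T lineage miRNAs, which define the labelled tissue, summed to 221733 CPM in FL (29076 to 284512), 218889 in HGC (97712 to 353902) and 279233 in VGC (29312 to 476874). No marker of these lists had a thymus median of 0. In libraries of their own profile the muscle sums were 27196, 10193 and 4721 CPM and the T lineage sums 246093, 226720 and 299205. In TERM the T lineage sums were 358799 CPM in FL (111245 to 438874), 291454 in HGC (19763 to 406677) and 283865 in VGC (15609 to 514346), the fat sums 25078, 14908 and 40756, the muscle sums 2608, 2091 and 6656, and the erythroid sums 15609, 13947 and 27664. The part of these markers in the flight ratios was not tested.

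Plates were spread over the arms of the LAR thymus libraries. Values are therefore set side by side within plates that held both FL and HGC. miR-20b-5p had FL medians of 271.0 CPM against 1078 in HGC on plate 1, 664.1 against 2175 on plate 2, 1292 against 1554 on plate 3, 405.6 against 3558 on plate 5 and 882.6 against 506.0 on plate 6. FL was the lower on 4 of these 5 plates, each of which held 1 to 3 libraries per arm. Ages were matched on plate 1 only, so the count mixes age with arm. Plate 5 set FL of 8 months against HGC of 3 months, and plate 6 FL of 3 months against HGC of 8 months. Plate 2 set FL of both ages against HGC of 3 months, and plate 3 FL of 8 months against HGC of both ages. Both FL libraries and 1 of the 2 HGC libraries of plate 1 had another tissue's profile, so that plate gives no FL value of thymus profile. On the other 4 plates all FL and HGC libraries had a thymus profile, and FL was the lower on 3.

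Age was not part of the choice and was tested. With all LAR thymus libraries (15 per age) the 4 members were lower at 8 than at 3 months by less than the spread allowed: the log2 differences were −0.58 ± 0.314 (SE) for miR-20b-5p, −0.41 ± 0.317 for miR-106a-5p, −0.44 ± 0.345 for miR-363-3p and −0.64 ± 0.353 for miR-18b-5p. The adjusted p from edgeR's quasi-likelihood test with Benjamini-Hochberg adjustment was 0.344, 0.502, 0.508 and 0.354. So 0 of 4 members passed, beside 2.72% of the 993 miRNAs tested, 0 had an unadjusted p under 0.05, beside 17.5%, and 0 passed in DESeq2, beside 4.33%.

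Without libraries of another profile the spread was smaller, and 3 of the 4 fell with age in LAR. miR-20b-5p then ran from 411.5 to 3558 CPM with a median of 2175 at 3 months (n = 11) and from 405.6 to 2090 with a median of 1392 at 8 months (n = 14). It fell by 0.84 ± 0.225 on the log2 scale (edgeR adjusted p = 0.0170), miR-106a-5p by 0.67 ± 0.188 (edgeR adjusted p = 0.0187) and miR-18b-5p by 0.94 ± 0.256 (edgeR adjusted p = 0.0170). miR-363-3p differed by −0.65 ± 0.271 (edgeR adjusted p = 0.0995) and did not pass. The ages overlapped in range for each member. In this fit 9.34% of 942 miRNAs were called lower. The 3 members are not separate cases, since their levels varied together between thymus libraries. Without whole sequencing pools in which another tissue's profile was frequent, the same 3 members were called lower (edgeR adjusted p = 0.0179 for miR-20b-5p, 0.02495 for miR-106a-5p, 0.0171 for miR-18b-5p and 0.0832 for miR-363-3p), beside 8.43% of the miRNAs. Which of the 2 readings holds thus turned on whether libraries of another profile were kept.

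**Figure D4:**
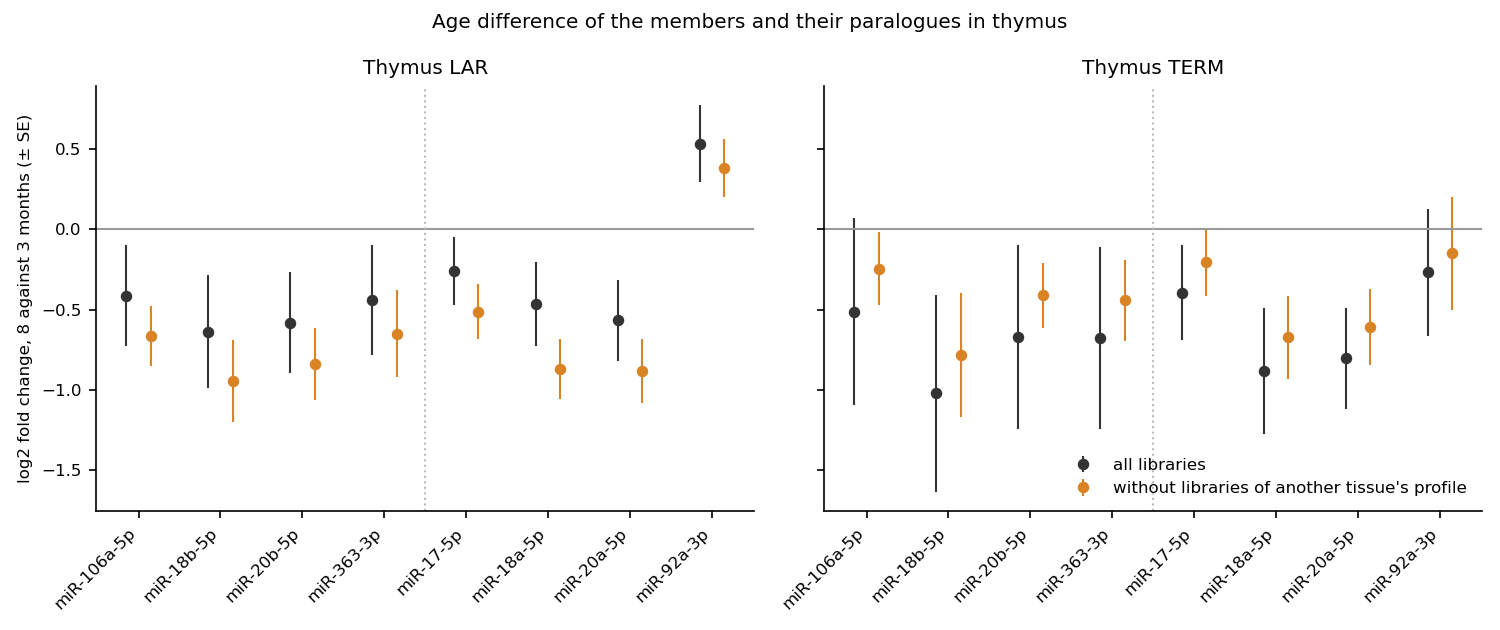
Difference between 8 and 3 months in thymus on the log2 scale (± SE of the edgeR fit), for the 4 members and their miR-17-92 paralogues in LAR and TERM, with all libraries and in libraries of their own profile. All 8 values of the members in LAR lie below 0, from −0.41 to −0.94, and miR-92a-3p lies above 0 in LAR.

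In LAR libraries of their own profile, 5 of the 6 miR-17-92 paralogues and 1 of the 3 of miR-106b-25 (miR-106b-5p) were also called lower at 8 months. By edgeR's quasi-likelihood test miR-20a-5p fell by 0.89 on the log2 scale (adjusted p = 0.00861), miR-18a-5p by 0.87 (adjusted p = 0.00814) and miR-17-5p by 0.51 (adjusted p = 0.0399). Of the other strands, not all of which are given here, miR-106a-3p and miR-20b-3p fell by 0.92 (edgeR adjusted p = 0.0396) and 0.87 (edgeR adjusted p = 0.0490). miR-92a-3p differed by 0.38 (edgeR adjusted p = 0.147), the opposite direction to miR-363-3p. None of these passed with all libraries.

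Within-library ratios of each member to its paralogue were compared between ages by a permutation test, 2-sided, with 100000 resamples within arms. Of 8 such tests over both extractions, 0 passed after adjustment. In LAR the ratio of miR-363-3p to miR-92a-3p was lower at 8 months by 0.78 on the log2 scale (permutation p = 0.0224, adjusted 0.179), and by 1.01 in libraries of their own profile (permutation p = 0.0105, adjusted 0.0838). The ratio of miR-20b-5p to miR-20a-5p differed by 0.21 with all LAR libraries (permutation p = 0.524, adjusted 0.641) and by −0.01 in libraries of their own profile (permutation p = 0.906, adjusted 0.928).

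In TERM the age differences had the same direction and did not pass. The log2 differences were −0.67 for miR-20b-5p, −0.51 for miR-106a-5p, −0.68 for miR-363-3p and −1.02 for miR-18b-5p (edgeR adjusted p = 0.543, 0.662, 0.533 and 0.368), with 0 of 4 called by edgeR, beside 3.94% of 989 miRNAs, 0 by DESeq2, beside 5.66%, and 0 at an unadjusted p under 0.05, beside 18.3%. In libraries of their own profile they were −0.41, −0.25, −0.44 and −0.78, and 0 passed, beside 23 of 938 miRNAs. There 0 members had an unadjusted p under 0.05, beside 141 of the 938. The flight difference by age rests on the contrast that chose the members and is described without a test. The fitted log2 difference FL vs. HGC at 8 months minus that at 3 months was 0.72 ± 0.768 (SE) for miR-20b-5p, 0.73 ± 0.776 for miR-106a-5p, 0.68 ± 0.845 for miR-363-3p and 1.03 ± 0.866 for miR-18b-5p in LAR, and 1.64, 1.78, 0.88 and 1.72 in TERM. Libraries of their own profile leave out 2 HGC mice of 8 months in TERM, and there the LAR values were 0.82, 0.82, 0.89 and 0.98 and the TERM values 0.89, 1.03, 0.14 and 0.96.

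The ground arms did not differ beyond the spread between mice. HGC against VGC in LAR gave log2 differences of −0.20 for miR-20b-5p, −0.27 for miR-106a-5p, 0.17 for miR-363-3p and 0.01 for miR-18b-5p, and in TERM −0.20, −0.26, 0.06 and −0.22. By edgeR and by DESeq2 0 of 4 were called, beside 0% of all miRNAs in both extractions, and 0 had an unadjusted p under 0.05, beside 5.74% in LAR and 4.04% in TERM. LAR against TERM in the ground arms gave −0.36 for miR-20b-5p, −0.46 for miR-106a-5p, −0.40 for miR-363-3p and −0.76 for miR-18b-5p (edgeR adjusted p = 0.768, 0.686, 0.733 and 0.463). Here too 0 of 4 were called by edgeR, beside 1.12% of 1068 miRNAs, 0 by DESeq2, beside 2.25%, and 0 had an unadjusted p under 0.05, beside 13.9%. In libraries of their own profile, 17 LAR and 14 TERM ground libraries, miR-106a-5p was lower in LAR by 0.61 (edgeR adjusted p = 0.0272) and miR-18b-5p by 0.89 (edgeR adjusted p = 0.0489), while miR-20b-5p differed by −0.50 (edgeR adjusted p = 0.0922) and miR-363-3p by −0.54 (edgeR adjusted p = 0.152). In that fit 2.97% of 1011 miRNAs were lower in LAR. Without whole pools in which another tissue's profile was frequent, 0 of 4 passed, beside 65 of 999 miRNAs. At an unadjusted p under 0.05 there was 1, beside 22.0% of the miRNAs. The differences were −0.47 for miR-106a-5p (edgeR adjusted p = 0.313) and −0.79 for miR-18b-5p (edgeR adjusted p = 0.0777). Marker sums also differed between LAR and TERM in the ground libraries of their own profile. Those of muscle and T lineage differed in opposite directions in HGC and VGC. The muscle sum had medians of 10193 CPM in LAR and 1865 in TERM for HGC and 4721 and 6656 for VGC, and that of stroma and smooth muscle 49081 and 31977 for HGC and 48782 and 38452 for VGC. The fat sum had medians of 50563 CPM in LAR and 14908 in TERM for HGC and 62263 and 32644 for VGC, the erythroid sum 37614 and 11719 for HGC and 26530 and 25020 for VGC, and the T lineage sum 226720 and 339116 for HGC and 299205 and 289082 for VGC. The epithelium sum had medians of 33177 CPM in LAR and 25818 in TERM for HGC and 36754 and 30377 for VGC. The part of these markers in the difference was not tested.

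Outside thymus, FL was compared with each ground arm in the other 12 tissues, which the thymus ratio did not use. FL vs. HGC in LAR called 2 of 48 tests of a member, both higher in FL, beside 1.68% of all tests, and 9 had an unadjusted p under 0.05, beside 12.3%. These were miR-106a-5p in BAT (log2 difference 3.26 ± 0.983, edgeR adjusted p = 0.0402, beside 6.92% of the miRNAs in BAT) and miR-363-3p in SCAT (1.5 ± 0.441, edgeR adjusted p = 0.0398, beside 5.35%). FL vs. HGC in TERM called 0 of 47 by edgeR, beside 0.334%, and 1 by DESeq2, beside 0.572%, and 3 had an unadjusted p under 0.05 by edgeR, beside 9.02%.

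The BAT result rested on few libraries. In FL miR-106a-5p was 326.6 CPM in replicate 2, which had a spleen profile, 163.2 in replicate 1 of BAT profile, 83.8 in replicate 11 of kidney profile and 7.78 in replicate 12 of liver profile, while the other 6 ran from 1.45 to 10.8. HGC ran from 1.44 to 11.2 CPM with a median of 3.46 (n = 10). Without libraries of another profile the difference was 2.55 (edgeR adjusted p = 0.218) and did not pass. In SCAT miR-363-3p ran in FL from 1.08 to 47.0 CPM with a median of 14.5 (n = 9) and in HGC from 0.809 to 8.15 with a median of 5.29 (n = 10). Of these FL libraries, 4 had another profile, and without them the difference was 0.77 (edgeR adjusted p = 0.5004).

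FL vs. VGC called 3 of 48 in LAR, all lower in FL, beside 0.800% of all tests, and 21 had an unadjusted p under 0.05, beside 11.9%. Of the 48 differences 20 were higher and 28 lower in FL, with a median log2 difference of −0.65, and the 4 members of a tissue share its libraries. In TERM it called 4 of 47, all lower in FL, beside 0.774%, and 13 had an unadjusted p under 0.05, beside 9.33%. All 7 calls lay in liver, where 4.98% of the miRNAs were called in LAR and 7.24% in TERM. In LAR the log2 differences were −2.96 for miR-20b-5p (edgeR adjusted p = 0.0480), −2.82 for miR-106a-5p (edgeR adjusted p = 0.0469) and −3.53 for miR-363-3p (edgeR adjusted p = 0.0247). In TERM they were −4.40 for miR-20b-5p and −4.32 for miR-106a-5p (edgeR adjusted p = 0.0205 for both), −4.02 for miR-363-3p (edgeR adjusted p = 0.0315) and −3.20 for miR-18b-5p (edgeR adjusted p = 0.0307).

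The high VGC values came from libraries of another profile. In liver VGC LAR miR-20b-5p ran from 7.19 to 63.4 CPM in 8 libraries of liver profile, against 1735 in replicate 12 of thymus profile and 239.9 in replicate 14 of kidney profile. In liver VGC TERM it ran from 5.92 to 48.8 CPM in 8 libraries and was 5392 in replicate 14 of thymus profile. The FL livers ran from 5.70 to 98.0 CPM in LAR and from 6.78 to 99.0 in TERM, overlapping the livers of liver profile. Without libraries of another profile the LAR log2 differences were −0.44 for miR-20b-5p, −0.43 for miR-106a-5p, −0.83 for miR-363-3p and 1.03 for miR-18b-5p, those in TERM 0.17, 0.00, 0.40 and 0.13, and none passed.

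**Figure D5:**
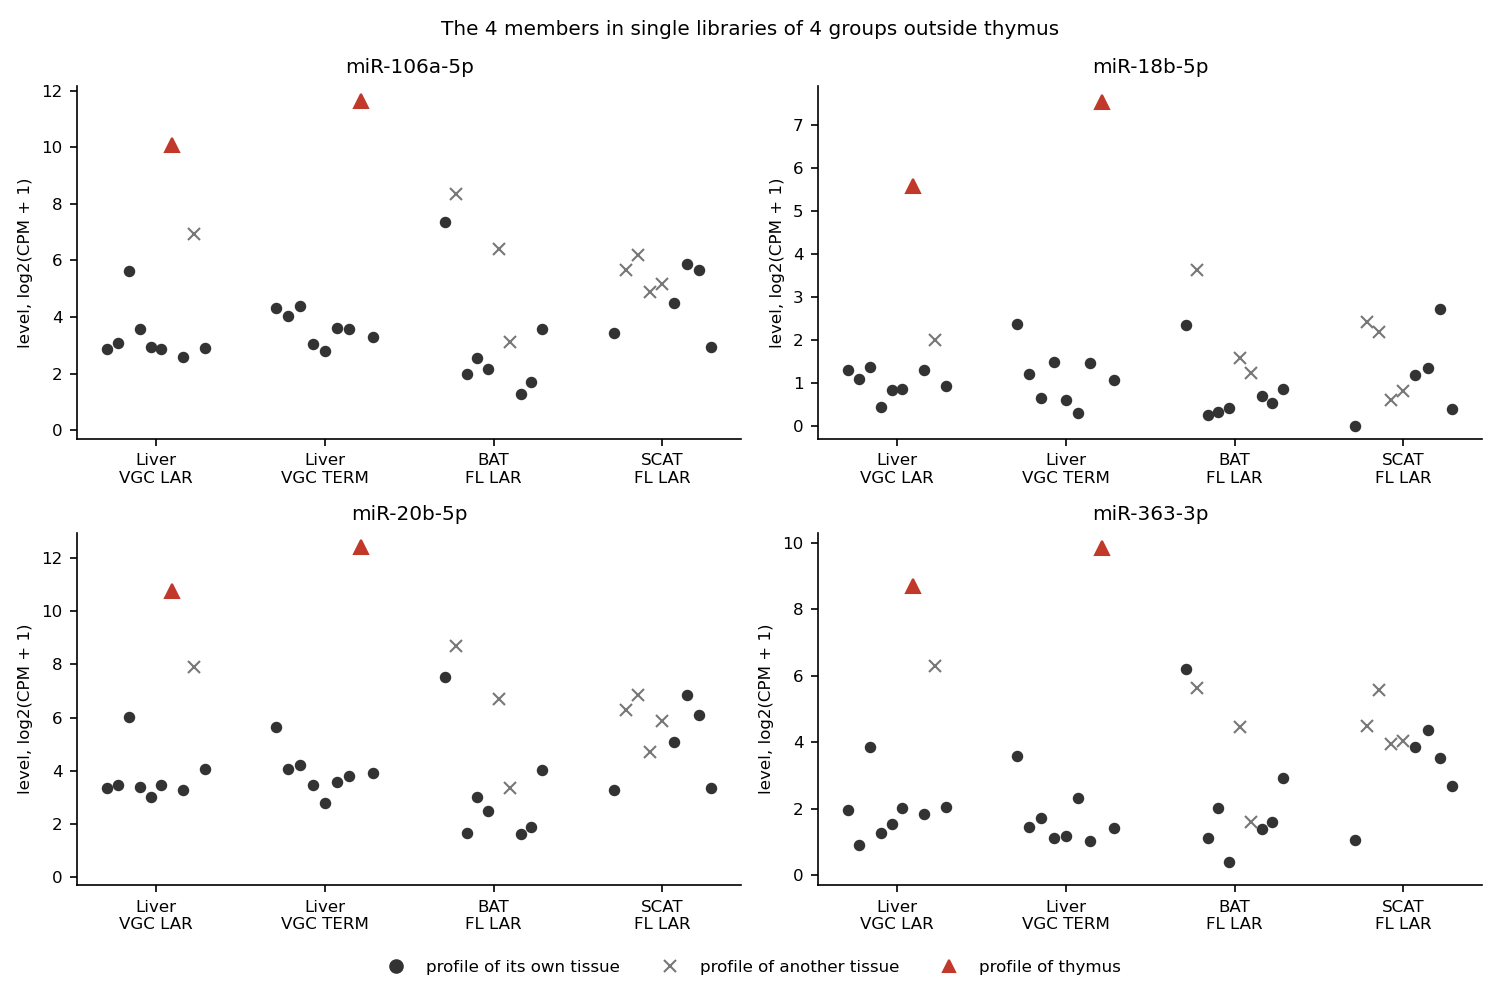
Level of each member, as log2(CPM + 1), per library in the groups outside thymus that carried the calls: liver VGC of LAR and TERM, BAT FL of LAR and SCAT FL of LAR. Triangles are libraries of thymus profile and crosses of another profile. In liver VGC TERM the single triangle stands at 5392 CPM of miR-20b-5p above 8 libraries of 5.92 to 48.8.

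In libraries of their own profile few tests of a member were called outside thymus. By edgeR, FL vs. HGC called 0 of 44 in LAR, beside 0.111% of all tests, and 1 of 47 in TERM, beside 0.0682%. At an unadjusted p under 0.05 these were 7, beside 9.74%, and 3, beside 7.72%. FL vs. VGC called 0 of 44 in LAR, beside 0.0805%, and 0 of 47 in TERM, beside 0.0584%. At an unadjusted p under 0.05 these were 15 of 44, beside 9.74%, and 8 of 47, beside 9.36%. Both were larger shares than those of all tests, though the members of a tissue share its libraries. In LAR 26 of the 44 FL vs. VGC differences were then higher and 18 lower in FL, with a median of 0.30, the opposite sign to the median with all libraries. The single call was miR-106a-5p in MAT of TERM (log2 difference −4.43, edgeR adjusted p = 0.04995), which set 1 FL library of 9.27 CPM against 5 HGC libraries of 118.9 to 330.8 CPM, so that it rested on that library.

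Age outside thymus was tested in the tissues that had both ages. With all libraries edgeR called 0 of 44 in LAR, beside 0.0668% of all tests, and DESeq2 2, beside 0.516%, while edgeR called 0 of 43 in TERM, beside 1.63%. At an unadjusted p under 0.05 edgeR gave 11 in LAR, beside 10.0%, and 6 in TERM, beside 14.2%. In libraries of their own profile it called 0 of 40 in LAR, beside 0.0337%, with 11 at an unadjusted p under 0.05, beside 9.78%. In TERM it called 2 of 43, beside 1.82%, with 7 at an unadjusted p under 0.05, beside 10.9%. Both were lower at 8 months in MAT, miR-20b-5p by 1.70 (edgeR adjusted p = 0.0473) and miR-363-3p by 3.19 (edgeR adjusted p = 0.00529). MAT of TERM then held 7 libraries in all.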

How the data were processed

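Libraries were grouped by the tissue, arm, extraction and age that the labels give. The authors mapped small RNA reads to GRCm39 with miRMaster and deposited estimated counts per miRBase miRNA, in which a read with several origins was split, and counts for the other RNA classes, which served only a scaling over 6 classes. From these, CPM was computed, and counts were rounded and fitted with edgeR 4.0.16 (TMM factors, quasi-likelihood test, Benjamini-Hochberg adjustment over all miRNAs of a fit, threshold 0.05) in R 4.3.3, keeping miRNAs with at least 5 counts in 10% of the libraries of any group. DESeq2 1.42.0 was an alternative. The fits were tested on simulated data. Each library's profile was compared with the tissue medians over 704 miRNAs outside the 3 clusters, and 11 of 44 sequencing pools were left out in an alternative because more than 1 in 3 of their libraries had another tissue's profile. Ratios to paralogues had 0.5 added to each count, and likeness was Pearson's r of log2(CPM + 1). Medians, permutation tests and figures used Python 3.11.15 (pandas 2.3.3, scipy 1.17.1, matplotlib 3.10.9).

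Named besides the members were the other arms of the 6 hairpins, the paralogues in both related clusters, and for each member the 5 most similar miRNAs. The members and lists were chosen with earlier results of these data known. The limit of 3 counts covers counting error only, whereas the SE of a fit covers the spread between mice.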

Additional observations from a re-analysis of the deposited data

Results flagged for a closer look

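In 24 thymus groups of 9 or 10 libraries (4 members, 3 arms, LAR and TERM), 8 held a lowest library far below the others relative to the group's range, where chance gives about 1 in 20. They came from 3 libraries. In FL TERM, replicate 1, a mouse of 3 months whose library was nearest to thymus with a correlation of only 0.146, held 289.5 CPM of miR-106a-5p against 1828 to 3528 in the others, 581.3 CPM of miR-20b-5p against 2681 to 4283, and 0.319 CPM of miR-18b-5p against 57.4 to 212.9. In VGC LAR, replicate 13, whose library had a kidney profile, held 112.3 CPM of miR-106a-5p against 574.6 to 1863, 237.9 CPM of miR-20b-5p against 787.3 to 3012, and 2.76 CPM of miR-18b-5p against 19.7 to 83.1. In VGC TERM, replicate 11, whose library had a heart profile, held 3.08 CPM of miR-20b-5p against 174.3 to 4963 and 1.93 CPM of miR-363-3p against 58.3 to 1036.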

How the results depend on the processing

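In thymus, leaving out each library in turn changed no count of called members (0 for age and for HGC against VGC). The LAR age difference then ran on the log2 scale from −0.70 to −0.44 for miR-20b-5p, from −0.53 to −0.27 for miR-106a-5p, from −0.64 to −0.25 for miR-363-3p and from −0.79 to −0.45 for miR-18b-5p. The LAR flight difference at 8 minus 3 months, which was not tested, ran from 0.29 to 1.06, 0.36 to 1.01, 0.10 to 1.24 and 0.57 to 1.59 in the same order. HGC against VGC changed sign for miR-18b-5p and miR-363-3p in both extractions and for miR-20b-5p in TERM. The count for age in LAR went from 0 to 3 of 4 without libraries, and to 3 without pools, of another profile, and that for LAR against TERM from 0 to 2 without such libraries but stayed at 0 without such pools. Outside thymus, FL vs. HGC in LAR (2 called) gave 5 by DESeq2, 1 with age as a covariate, and 0 with no filter or without libraries or pools of another profile. FL vs. VGC in LAR (3 called) gave 1 with DESeq2 size factors, 1 with no filter, and 0 with age as a covariate, with the replicate block, or without libraries or pools of another profile. FL vs. VGC in TERM (4 called) gave 0 by DESeq2, with age as a covariate, with the replicate block, and without libraries or pools of another profile. FL vs. HGC in TERM (0 called) gave 1 by DESeq2 and 1 without libraries of another profile. Age outside thymus (0 called) gave 2 by DESeq2 in LAR, and in TERM 3 with no filter and 2 without libraries of another profile. Shares over all miRNAs are not set beside these counts, which show only how the calls depended on the setting. The cause of these changes was not tested. Replicate numbers repeat between arms but name different mice, so the samples were treated as unpaired. Over 19 HGC and VGC thymus pairs of 1 number, 13 had a correlation of deviations above 0.1 (lowest −0.48, median 0.26, highest 0.94). The deviations were taken from the arm means, and mice of 1 number shared their age. These values therefore cannot decide whether the numbers pair the samples. The replicate block changed no other call, and plate as a covariate changed none. Under another scaling the thymus ratio to the next tissue ran from 4.11 to 5.86, with kidney in place of spleen as the next tissue of miR-363-3p. Depth limits miR-18b-5p outside thymus and spleen, where its medians lie near the limit of 3 counts.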
